A study of Mus musculus with 37 samples.

Results

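Hdac1, Hdac2, Hdac4 and Smarcd3 are the 4 chromatin regulators in a pool of 48 factors that was delivered to mouse embryonic fibroblasts, and they are described here over all cells and libraries. They were found by symbol among 27998 gene rows with an Ensembl identifier, and all 4 had a row. The fibroblasts were of ICR background and were harvested at day 7 after infection with retroviral vectors carrying the pool. Single-cell RNA was captured by Drop-seq, in which droplets pair a cell with a barcoded bead that takes up polyadenylated RNA. All 37 samples are technical replicates of 1 biological replicate and received the whole pool; no sample without the pool was analysed here. The groups compared are therefore cells of the same culture: cells with a set of markers against cells without it, cells with a detected factor against cells without it, and cells high in a member against other cells. A count of a pool gene cannot tell a delivered transcript from the cell's own.

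Hdac1 and Hdac2 are closely related class I histone deacetylases, which remove acetyl groups from histone tails as the catalytic subunits of the Sin3, NuRD and CoREST corepressor complexes. Hdac4 is a class IIa deacetylase that binds MEF2 proteins and represses their targets, and that leaves the nucleus when kinases such as CaMK phosphorylate it and 14-3-3 proteins hold it. Smarcd3, also called BAF60c, is a subunit of the SWI/SNF (BAF) chromatin remodelling complexes. It is known from heart and skeletal muscle, where it joins these complexes to cardiac factors and to MyoD.

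The rows of Hdac1, Smarcd3 and Hdac4 may hold reads of another gene. For Hdac1 the reason is a near-identical copy, which concerns part of the transcript. For Smarcd3 and Hdac4 it is exon bases shared with a gene on the opposite strand, and for Smarcd3 this concerns most counts of the row. Hdac1 (ENSMUSG00000028800, GRCm38 chromosome 4, 129516104 to 129542713, minus strand) has a processed pseudogene, Gm10093, on chromosome 17 from 78491582 to 78493025 on the plus strand. Further processed pseudogenes of Hdac1, Gm4864 (94.6% identity) and AC125456.1 (96.3% identity), had no row. The single exon of Gm10093 matched 1444 bases of the Hdac1 transcript, within its 1449-base coding sequence, with 9 differences and no gap (99.4% identity). Of the differences, 5 fall in the 60 coding bases shown here, positions 434 to 493 counted from the A of the Hdac1 start codon, with the differing bases in capitals:
Hdac1: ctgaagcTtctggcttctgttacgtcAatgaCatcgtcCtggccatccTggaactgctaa
Gm10093: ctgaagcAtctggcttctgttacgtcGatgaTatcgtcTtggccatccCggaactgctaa
These 5 differences are T441A, A460G, C465T, C472T and T482C, with the base of Hdac1 given before the position. Most short stretches of the matched part do not separate the copies. Of its 1395 windows of 50 bases 80.4% held no difference, and the longest identical run was 450 bases. The matched part covers bases 85 to 1528 of the 2038 bases of the Hdac1 transcript. Bases outside it had no counterpart in Gm10093, and where the reads lay was not examined. The Gm10093 row held 1485 counts in 1211 cells, or 13.1 counts for every 100 of Hdac1. Among 11554 genes its level had the highest Pearson r with that of Hdac1 (0.21 over 8563 cells, a description). Rpl3 and Rpl7a came next, at 0.16 each. These values pool the cells of all libraries, so differences between libraries can enter them.

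Smarcd3 (ENSMUSG00000028949, chromosome 5, 24590818 to 24624411, minus strand) overlaps at its 3′ end with the 3′ end of Chpf2, the gene of a chondroitin-polymerizing factor on the plus strand (24586741 to 24594556). Their annotated exons share 2466 bases, 1293 of which code for Chpf2 and 510 for Smarcd3. The Smarcd3 row held 10706 counts and the Chpf2 row 10740. Both rows had the same count in 88.3% of cells, 7562 in all, of which 3919 held 0 of both genes. Over cells r was 0.98 for the counts and 0.95 for counts divided by the depth of the cell. Counts of Smarcd3 beyond those of Chpf2 in the same cell came to 550 in all, or 4.59 CPM (counts per 1000000 counts of all genes), and never exceeded 4 in a cell. Most counts of the Smarcd3 row are thus counts that Chpf2 also holds, and without the strand these data cannot assign them to either gene. Hdac4 (ENSMUSG00000026313, chromosome 1, 91928779 to 92195699, minus strand) shares 3536 exon bases with the antisense lincRNA Gm26720, whose row held 98 counts against 2830 for Hdac4. Hdac2 (ENSMUSG00000019777, chromosome 10, 36974544 to 37001889, plus strand) had no overlapping exon, and no near-identical copy was found in the annotation.

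**Figure D1:**
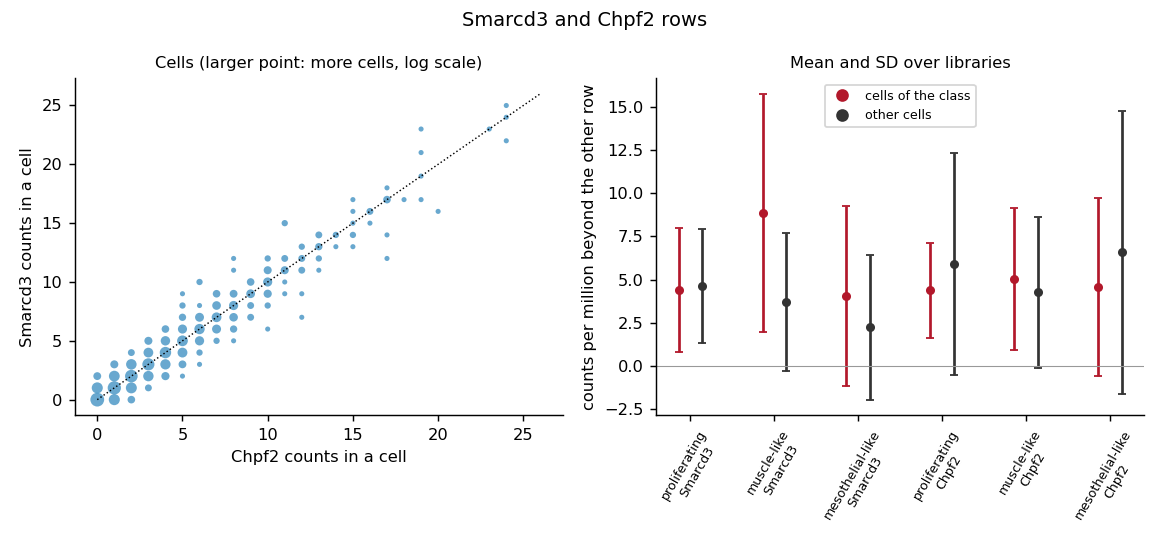
Left, counts of the Smarcd3 row against counts of the Chpf2 row in a cell, with larger points for more cells (log scale) and a dotted line of equality. Right, mean and SD over libraries of the CPM of each row beyond the other in cells of a class (red) and in matched other cells (dark): only in muscle-like cells did the Smarcd3 excess, 8.85, pass the test against other cells, 3.71.

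The 8563 cells held 119796414 counts, with a median of 8558 per cell, and the 36 libraries (technical replicates 4 and 6 share cells and count as 1) held 637680 to 7921171 counts. Library names give 3 series, JD with 15 libraries, PZ47-PZ48 with 15 and PZ58 with 6. In 10 libraries, 4 of JD and all 6 of PZ58, the ribosomal protein gene Rps27a stood above 100 CPM, and in the other 26 below; these are called the high and low read class. At least 3 of 10 fibroblast markers were detected in 99.1% of cells. By markers, 4499 cells were proliferating, 825 muscle-like, 423 mesothelial-like and 41 macrophage-like. These classes overlap: 498 muscle-like, 232 mesothelial-like and 26 macrophage-like cells were also proliferating, and 74 mesothelial-like cells were also muscle-like.

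All 4 members had more cells at high counts than counts proportional to depth would give, and Hdac2 had the highest counts. Hdac1 was detected in 54.5% of cells (exact 95% interval 53.5% to 55.6%, counting error only), Hdac2 in 72.1% (71.2% to 73.1%), Hdac4 in 23.3% (22.4% to 24.2%) and Smarcd3 in 52.7% (51.6% to 53.7%). Detection followed depth: cells with Hdac1 had a median of 12721 counts, against 6114 in cells without it. Cells with all 4 members numbered 891 (10.4%), with a median of 27951 counts, and cells with none 829 (9.68%), with a median of 4500. No class was known to lack these genes; the 41 macrophage-like cells, with a median of 8505 counts, had Hdac1, Hdac2, Hdac4 and Smarcd3 in 51.2%, 70.7%, 39.0% and 48.8%.

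Hdac2 had 50 or more counts in 15 cells, where counts proportional to depth would give 0.043 such cells, and 20 to 49 counts in 78 cells, against 40.2. Its highest cells held 185 of 118574 counts in replicate 12, 143 of 44465 in the library of replicates 4 and 6, and 127 of 66951 in replicate 19. A level of 1000 CPM with at least 3 counts was reached in 123 cells of 30 libraries, which carried 13.1% of all Hdac2 counts. The base lay far lower: the median over all cells was 139 CPM and the 90th percentile 393 CPM. A single cell could shift a library: without its top cell, Hdac2 stood at 152 CPM in replicate 12, against 213 with it, and at 122 CPM in replicate 27, against 187 with it.

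The other members had smaller counts. Hdac1 had 20 to 49 counts in 8 cells, against 3.51 if proportional to depth, Smarcd3 in 6 cells, against 1.83, and Hdac4 had 5 to 9 counts in 38 cells, against 18.9. The top 1% of cells by counts held 15.6% of the counts of Hdac2, 14.0% of Hdac4, 10.7% of Smarcd3 and 10.54% of Hdac1, with a median of 14.8% over 13450 genes. The 1000 CPM level, which is further above the mean for a low gene such as Hdac4, was reached in 4 cells for Hdac1, 11 for Smarcd3 and 0 for Hdac4, whose highest count was 7; 1 cell reached it for both Hdac2 and Smarcd3. The excess of the variance over counting error (moment estimate of the negative binomial dispersion within libraries) was 0.16 for Hdac1, 0.30 for Smarcd3, 0.49 for Hdac4 and 1.32 for Hdac2, with a median of 0.36 over 13450 genes. Among 40 pool genes with enough counts, ordered from the lowest dispersion, Hdac1 stood at place 1, Smarcd3 at 5, Hdac4 at 6 and Hdac2 at 14. Other pool genes reached much higher values, such as 10.8 for Mef2c and 25.1 for Myod1. Without the deepest 5% of cells of each library, the Hdac2 dispersion was 1.33.

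**Figure D2:**
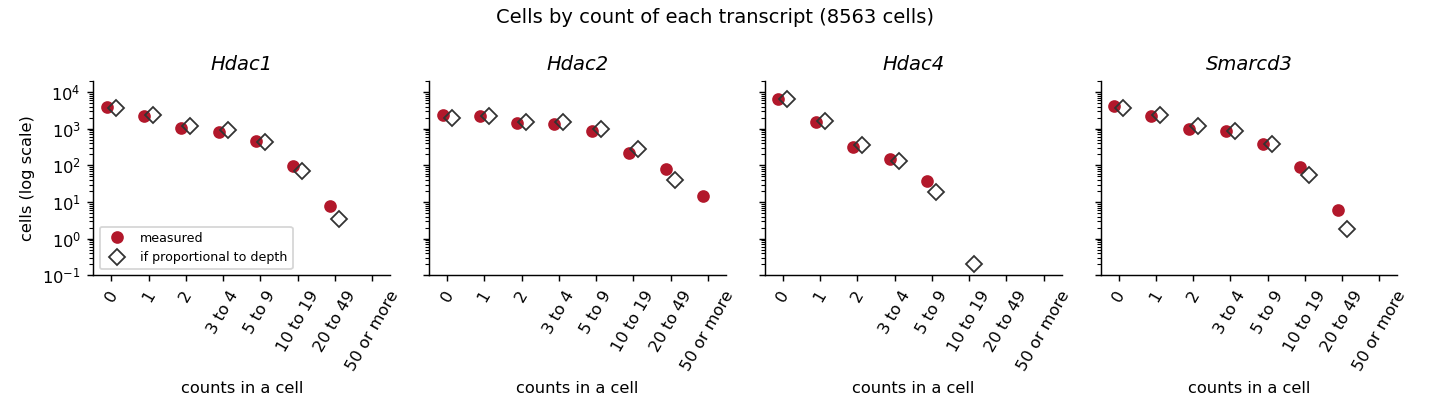
Number of cells (log scale) by counts of each transcript in a cell, measured (filled) and if counts were proportional to the depth of the cell within its library (open). Values under 0.1 cells are not drawn; Hdac2 had 15 cells with 50 or more counts, where none of the other 3 genes had any.

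Between libraries, Hdac1 differed most clearly of the 4 members by read class, while for Hdac2 and Hdac4 no difference passed. Only the 4 members were tested by read class, so the share of all genes that differ is not known. Hdac1 ran from 53.7 CPM (replicate 5) over a median of 97.2 to 154 CPM (replicate 34). It averaged 126 ± 19.1 CPM in the 10 libraries of the high read class and 88.5 ± 19.0 CPM in the 26 of the low one (SD), which passed a two-sided permutation test (adjusted p = 4e-05, from the smallest p that 100000 resamples give; adjusted over the 4 members). Within the JD series the same held, with 122 ± 21.1 CPM in 4 libraries against 88.9 ± 16.7 CPM in 11 (exact permutation p = 0.0073, adjusted p = 0.029). Gm10093, the copy of Hdac1, stood at 17.2 CPM in the high class and 10.6 CPM in the low class, and its part in the difference was not tested.

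Smarcd3 averaged 98.4 ± 19.4 CPM in the high class and 85.7 ± 10.4 CPM in the low class (permutation test, adjusted p = 0.029). Within JD the difference had the opposite sign and did not pass, with 82.7 ± 8.20 CPM in 4 libraries of the high class against 88.2 ± 9.80 CPM in 11 (exact permutation test, adjusted p = 0.66). The 6 libraries of PZ58 averaged 109 ± 17.6 CPM. Hdac2 ranged from 100 to 254 CPM, with 184 ± 37.5 CPM in the high class and 173 ± 30.8 CPM in the low class (adjusted p = 0.38, permutation test). Hdac4 ranged from 15.7 to 33.8 CPM, with 24.8 ± 5.42 CPM and 22.5 ± 3.74 CPM in the high and the low class (adjusted p = 0.19, permutation test).

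**Figure D3:**
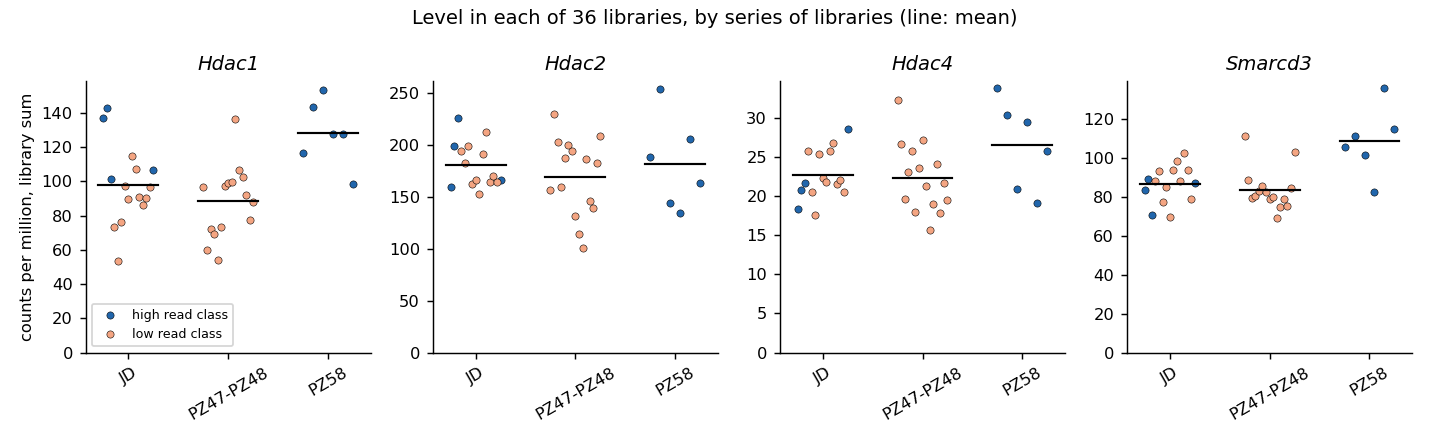
CPM of each gene in each of 36 libraries, summed over cells, by series of libraries; colour gives the read class and the line the mean. Hdac1 lay at 98.7 to 154 CPM in the high read class and at 53.7 to 136 CPM in the low one, so the ranges overlap.

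In proliferating cells Hdac1 was higher and Smarcd3 lower than in other cells. These cells held at least 3 of 16 markers of G2 and M phase, such as Mki67, Top2a and Cdk1, and 2450 of them were matched on depth with cells of the same library that held 0 or 1. The matched proliferating cells had a median of 6984 counts, against 11063 in all 4499, so the matched values describe the shallower part of the class. Hdac1 had 52.9, 101 and 181 CPM (lowest, median and highest library) in proliferating cells, against 43.9, 86.5 and 152 CPM in other cells. The ranges overlap, but Hdac1 was higher in proliferating cells in 28 of 36 libraries, 1.19-fold (log2 fold change 0.25, SE 0.06, adjusted p = 0.00034, edgeR). Its copy Gm10093 had a log2 fold change of 0.30 in proliferating cells (SE 0.13, adjusted p = 0.059, edgeR). The part of Gm10093 in the Hdac1 value was not tested. Across all 15355 genes tested, 35.7% passed, 17.2% as higher and 18.5% as lower, beside which 1 of the 4 members was higher and 1 lower. In the 6 libraries of PZ58 the log2 fold change of Hdac1 was 0.04 (adjusted p = 0.92), and in the 10 of the high read class 0.04 (adjusted p = 0.84). Without the library block its adjusted p was 0.074.

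Smarcd3 had 45.0, 76.8 and 128 CPM in proliferating cells and 72.3, 102 and 178 CPM in other cells. It was lower in proliferating cells in 31 of 36 libraries (log2 fold change -0.39, SE 0.06, adjusted p = 1.2e-07, edgeR). Chpf2 fell likewise, to 81.8 ± 21.9 CPM against 108 ± 23.0 CPM in other cells. The counts of Smarcd3 beyond Chpf2 were 4.40 ± 3.57 CPM in proliferating cells and 4.62 ± 3.30 CPM in other cells (sign-flip permutation test, adjusted p = 0.73). The fall was measured in counts that both rows hold, and no difference passed beyond them. Skeletal muscle markers were lower in proliferating cells too (16 of 17 passed), with summed levels of 75.6 to 2129 CPM over libraries, against 128 to 5509 CPM in other cells and none at 0. Of 12 mesothelial markers 8 were lower, with summed levels of 37.9 to 413 CPM against 33.6 to 743 CPM in other cells, and the 7 cardiomyocyte markers summed to a median of 293 CPM against 810 CPM in other cells. The part of these 2 lists was not tested. When cells with at least 2 skeletal muscle markers were left out of both sides, the log2 fold change of Smarcd3 was -0.43 (adjusted p = 4.5e-08, edgeR).

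Hdac2 ranged from 57.7 to 240 CPM in proliferating cells (mean 178 ± 38.7) and from 75.6 to 318 CPM in other cells (mean 169.9 ± 47.8), and the sums did not pass (log2 fold change 0.10, SE 0.05, adjusted p = 0.12, edgeR). The share of cells with the transcript did. With every cell thinned to 3000 counts, Hdac2 was detected in 40.2% ± 6.35 of proliferating cells and 35.2% ± 5.56 of other cells, and higher in 33 of 36 libraries (adjusted p = 8e-05, sign-flip permutation test over 24 shares). Unthinned, the shares were 72.9% and 64.7%. In the tail no difference passed: 3 or more counts of 3000 were found in 2.76% ± 1.48 of proliferating cells and 2.68% ± 1.85 of other cells (adjusted p = 0.87, permutation test). Without muscle-like cells on either side the sums of Hdac2 passed too (log2 fold change 0.22, adjusted p = 0.00098). Hdac1 was detected in 25.5% ± 6.32 of proliferating and 22.3% ± 6.78 of other thinned cells (adjusted p = 0.013, permutation test). Hdac4, at a median of 23.2 CPM in proliferating cells and 24.9 CPM in other cells, did not pass (log2 fold change -0.14, 95% interval -0.30 to 0.02, adjusted p = 0.20, edgeR).

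In muscle-like cells Smarcd3 was higher and Hdac1 slightly lower. The 825 cells held at least 3 of 17 skeletal muscle markers, among them Myog, Acta1 and Ttn, and 771 were matched. Smarcd3 had 29.2, 115 and 254 CPM (lowest, median and highest library) in muscle-like cells, against 40.0, 78.9 and 114 CPM in other cells. In 32 of 36 libraries it was higher in muscle-like cells, 1.51-fold (log2 fold change 0.59, SE 0.08, adjusted p = 1.8e-07, edgeR), where 14.9% of 15017 genes passed, 9.38% as higher and 5.49% as lower. Chpf2 stood at 124 ± 42.2 CPM in muscle-like cells and 81.2 ± 19.3 CPM in other cells, so the shared reads rose. Here the part of Smarcd3 beyond Chpf2 rose too, to 8.85 ± 6.92 CPM against 3.71 ± 3.99 CPM in other cells, and was higher in 25 of 36 libraries and lower in 8 (sign-flip permutation p = 1e-05, the smallest that 100000 resamples give; adjusted p = 3e-05 over 9 such tests). The part of Chpf2 beyond Smarcd3 was 5.03 ± 4.12 CPM in muscle-like cells and 4.26 ± 4.39 CPM in other cells (permutation test, adjusted p = 0.50).

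The share of cells with Smarcd3 and the share in its tail were both higher in muscle-like cells. The first share includes the cells of the tail, and neither was tested on counts beyond Chpf2. Thinned to 3000 counts, 31.3% ± 8.48 of muscle-like cells held Smarcd3, against 20.2% ± 5.01 of other cells (adjusted p = 8e-05, permutation test). In the tail, 2.04% ± 2.35 against 0.71% ± 1.86 had 3 or more counts (adjusted p = 0.048, permutation test). Unthinned, 74.6% and 61.8% held Smarcd3. Hdac1 had 31.7, 84.6 and 201 CPM in muscle-like cells and 57.8, 96.0 and 192 CPM in other cells, and was lower in 23 of 36 libraries (log2 fold change -0.23, SE 0.07, adjusted p = 0.018, edgeR). That call was lost without the library block (adjusted p = 0.28), without the deepest cells (adjusted p = 0.087) and with at least 2 markers in place of 3 (adjusted p = 0.23). Gm10093, the copy of Hdac1, had a log2 fold change of -0.02 in muscle-like cells (SE 0.15, adjusted p = 0.96, edgeR). Hdac2, with a median of 170.5 CPM in muscle-like and 161 CPM in other cells, did not pass (log2 fold change 0.12, 95% interval -0.05 to 0.30). Neither did Hdac4, with a median of 23.1 CPM in muscle-like and 22.2 CPM in other cells (log2 fold change 0.16, 95% interval -0.10 to 0.42). Fibroblast markers were lower in these cells (6 of 10 passed), with summed levels of 3546 to 12476 CPM against 8316 to 14931 CPM in other cells. All 7 cardiomyocyte and 5 smooth muscle markers had a higher level in them, summing to a median of 2488 and 1863 CPM against 141 and 869 CPM in other cells. Of 14 DNA replication markers 11 were lower, with summed levels of 247 to 1975 CPM against 220 to 1649 CPM in other cells (medians 568 and 802 CPM), as were 2 of 16 proliferation and 3 of 8 macrophage markers. Without cells with at least 2 proliferation markers the log2 fold change of Hdac1 was -0.44 (adjusted p = 0.24, edgeR). The part of the other lists in the member values was not tested.

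No member passed in mesothelial-like cells, which held at least 3 of 12 markers such as Upk3b, Msln and Wt1 (403 matched cells in 34 libraries; 9.34% of 13929 genes passed, 5.76% as higher and 3.58% as lower). Smarcd3 averaged 97.8 ± 25.3 CPM in mesothelial-like and 85.6 ± 37.9 CPM in other cells (log2 fold change 0.22, 95% interval 0.02 to 0.41, adjusted p = 0.18, edgeR). Hdac1 averaged 94.5 ± 38.7 CPM in mesothelial-like and 99.9 ± 32.5 CPM in other cells (-0.14, interval -0.32 to 0.04). Hdac2 averaged 168 ± 74.8 CPM in mesothelial-like and 187 ± 104 CPM in other cells (-0.09, interval -0.29 to 0.10). Hdac4 averaged 18.3 ± 10.9 CPM in mesothelial-like and 23.4 ± 14.1 CPM in other cells (-0.24, interval -0.61 to 0.13). Of 16 skeletal muscle markers tested, 6 were higher in the mesothelial-like cells and 0 lower. Their summed levels were 18.6 to 12660 CPM against 21.0 to 3612 CPM in other cells. The medians over libraries went the other way, 151 CPM in mesothelial-like and 182 CPM in other cells. Proliferation markers were lower, 14 of 16. Without cells with at least 2 skeletal muscle markers no member passed either, and the log2 fold change of Hdac1 was 0.20 (adjusted p = 0.53).

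**Figure D4:**
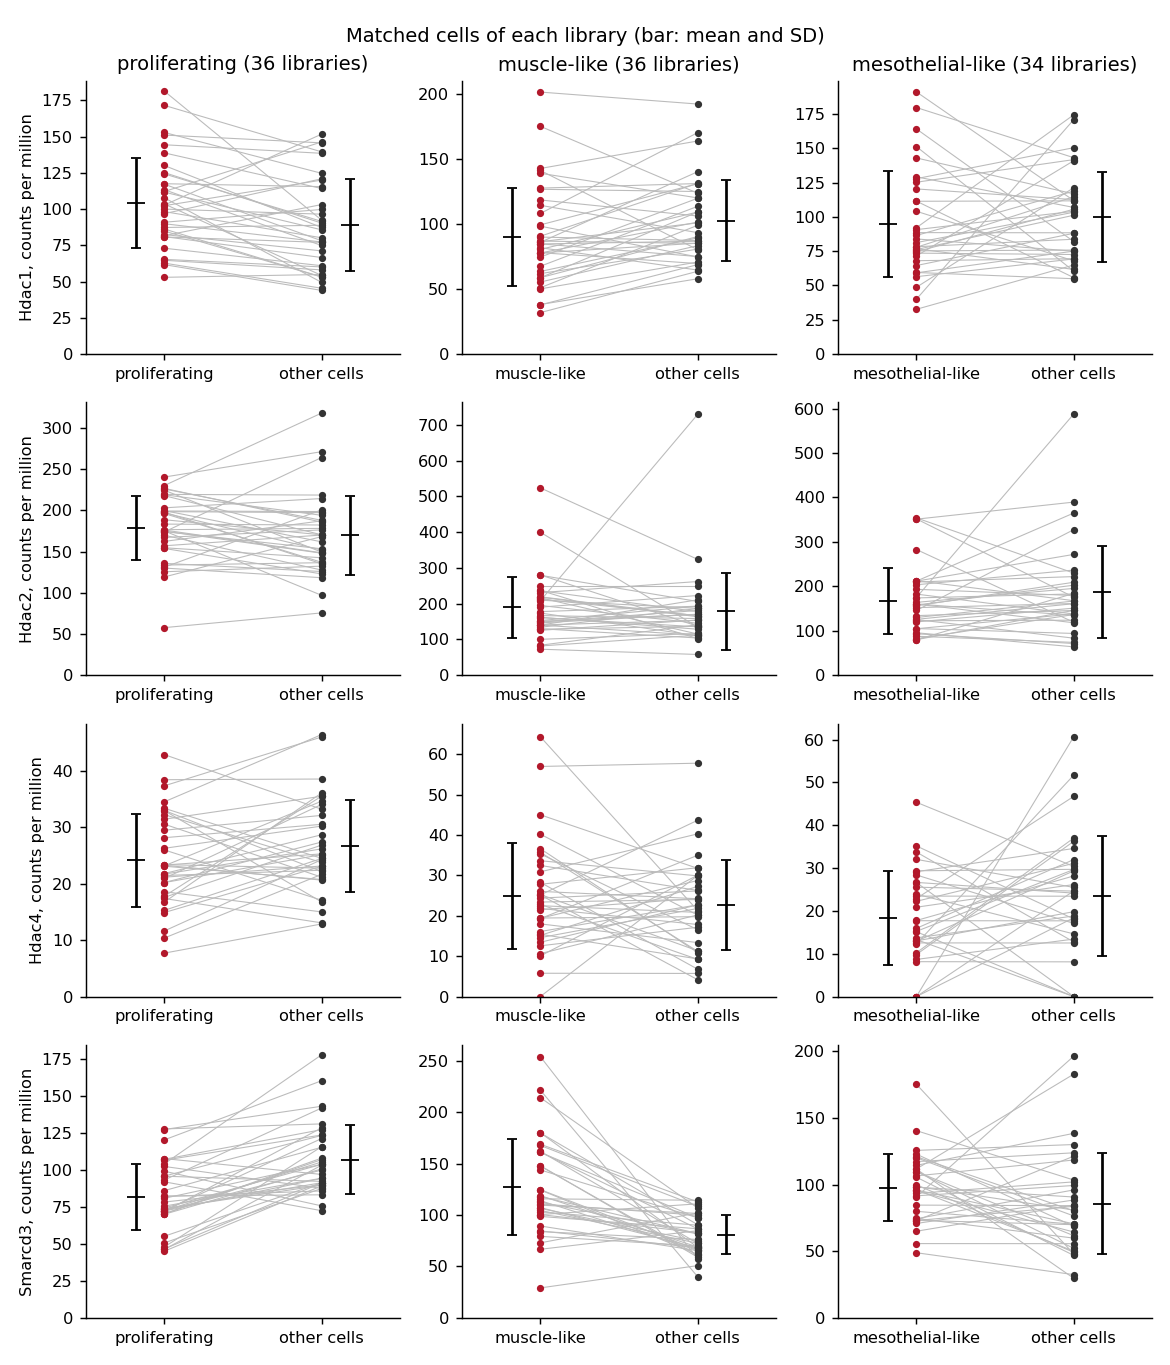
CPM of each gene (rows) in the matched cells of each library, cells of the class (left, red) joined to other cells of the same library (right, dark), with mean and SD; columns are the 3 classes. Smarcd3 was lower in proliferating cells in 31 of 36 libraries and higher in muscle-like cells in 32 of 36.

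Over 5 lists of complexes and enzymes related to these proteins, 43 of 111 genes tested (38.7%) passed in proliferating cells, beside 35.7% of all genes. In proliferating cells 12 of 36 subunits of the Hdac1 and Hdac2 complexes were higher and 2 lower (median log2 fold change 0.11, against -0.04 over all genes). They include the histone chaperone Rbbp7 (0.41, adjusted p = 1.1e-13), the NuRD helicase Chd4 (0.24), the Sin3 subunit Ing1 (0.34) and the Hdac1 partner Mier1 (0.33). Of 29 SWI/SNF subunits tested, 12 were higher and 2 lower in proliferating cells (median 0.13), with Actl6a at 0.43, Smarcc1 at 0.33, Actb at 0.30 and Pbrm1 at 0.24.

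Of 13 other deacetylases none was higher and 4 were lower in proliferating cells: Sirt2 (-0.38), the class IIa enzyme Hdac5 (-0.32), Hdac11 (-0.75) and Sirt7 (-0.28). Among 13 acetyltransferases 3 were higher in proliferating cells, led by Hat1, which acetylates newly made histones (log2 fold change 1.89, SE 0.09, adjusted p = 8.7e-26), with Kat7 at 0.36 and Kat2b at 0.33, and Kat6b was lower (-0.44). Of the 20 partners of class IIa deacetylases, 5 were higher and 2 lower in proliferating cells, among them the 14-3-3 proteins Ywhah (0.47), Ywhae (0.19) and Ywhab (0.11) as higher and the kinase Camk2d (-0.22) as lower. Over all genes tested, 17.2% were called higher and 18.5% lower, and no test of these lists against other genes was made.

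In muscle-like cells 12 of the 111 genes (10.8%) passed, beside 14.9% of all genes. The kinase Sik1, which phosphorylates class IIa deacetylases, was higher (log2 fold change 2.02, SE 0.20, adjusted p = 3.6e-13, edgeR), the 14-3-3 protein Ywhag lower (-0.16). Hdac11 (0.70) and Hdac5 (0.34) were higher among the other deacetylases, 2 of 13, and both were lower in proliferating cells. Of 29 SWI/SNF subunits 3 were higher and none lower: Dpf3, which reads acetylated histones in muscle (1.80), Brd7 (0.27) and Dpf2 (0.28). Of 36 subunits of the Hdac1 and Hdac2 complexes Rbbp4 (0.26) and Sin3b (0.18) were higher and Hmg20b lower (-0.17). The acetyltransferase Ncoa1 was higher (0.73) and Hat1 lower (-0.37). In mesothelial-like cells 6 of the 111 genes (5.41%) passed, beside 9.34% of all genes. The SWI/SNF subunit Brd9 (-0.48), Sin3a (-0.43), Hat1 (-0.45) and Ywhab (-0.14) were lower, and Camk4 (0.93) and Kat2b (0.71) higher.

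Cells were also compared by the factor detected in them, in 11 comparisons that share many cells and are not independent. Smarcd3 was higher in 5 of them, Hdac2 in 2, and Hdac1 was lower in 1; Hdac4 passed in none. The percentage of all genes called higher was 5.46% with Mef2c, 4.42% with Gata6, 3.49% with Hand2, 6.12% with Mesp1, 4.76% with Foxn4, 0.653% with Tbx5, 1.77% with Nkx2-5, 0.498% with Isl1, 9.76% with Myod1, 3.6% with Myocd and 2.99% with Gata4. The percentage called lower was 3.8%, 2.67%, 2.31%, 4.6%, 3.74%, 0.192%, 1.69%, 0.154%, 6.59%, 2.54% and 1.12% in the same order. With Myod1, the myogenic master factor, Smarcd3 had 41.4, 135 and 322 CPM (lowest, median and highest of 34 libraries) in cells with Myod1, against 0, 83.8 and 151 CPM in cells without it. That is a log2 fold change of 0.76 (SE 0.12, adjusted p = 3.3e-06, edgeR), and it was higher in cells with Myod1 in 30 of 34 libraries. With the mesoderm factor Mesp1 it was 0.56 (SE 0.09, adjusted p = 2.3e-05), with Gata4 0.50 (SE 0.13, adjusted p = 0.017), with Foxn4 0.35 (SE 0.10, adjusted p = 0.021) and with Mef2c 0.18 (SE 0.05, adjusted p = 0.022). Chpf2 passed with the same 5 factors. Log2 fold changes of Smarcd3 with the other 6 factors ran from -0.09 with Tbx5 to 0.33 with Myocd.

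Hdac2 was higher in cells with Mesp1, with 87.6, 195 and 1203 CPM (lowest, median and highest of 36 libraries) against 18.2, 148 and 305 CPM in cells without it, and higher in 26 of them (log2 fold change 0.57, SE 0.14, adjusted p = 0.0030, edgeR). It was also higher in cells with Myod1, with a median of 206 CPM against 155 CPM in cells without it (0.45, SE 0.13, adjusted p = 0.0097, edgeR). Both calls were lost without the deepest cells (adjusted p = 0.072 with Mesp1 and 0.17 with Myod1). Hdac1 was lower in cells with Myod1, with a median of 80.2 CPM against 97.1 CPM in cells without it (-0.38, SE 0.11, adjusted p = 0.0093, edgeR). When muscle-like and mesothelial-like cells were left out of both sides, every one of these calls was lost, for Hdac1, Hdac2 and Smarcd3. Fewer cells could then be matched: 131 with Myod1 against 344, 344 with Mesp1 against 495, and 102 with Gata4 against 199. With Foxn4 there were 329 against 449, and with Mef2c 1641 against 2111. The share of all genes called was not tallied without these cells. Why the calls were lost was not tested, and Smarcd3 with Gata4 had stood at 0.50 with all cells. The log2 fold change of Smarcd3 was then 0.30 with Myod1 (adjusted p = 0.78), 0.35 with Mesp1 (adjusted p = 0.074) and 0.53 with Gata4 (adjusted p = 0.34), and that of Hdac2 with Myod1 was -0.10 (adjusted p = 0.97). Smarcd3 passed with Isl1 instead (0.56, adjusted p = 0.033), where it had not passed with all cells (0.28, adjusted p = 0.28).

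**Figure D5:**
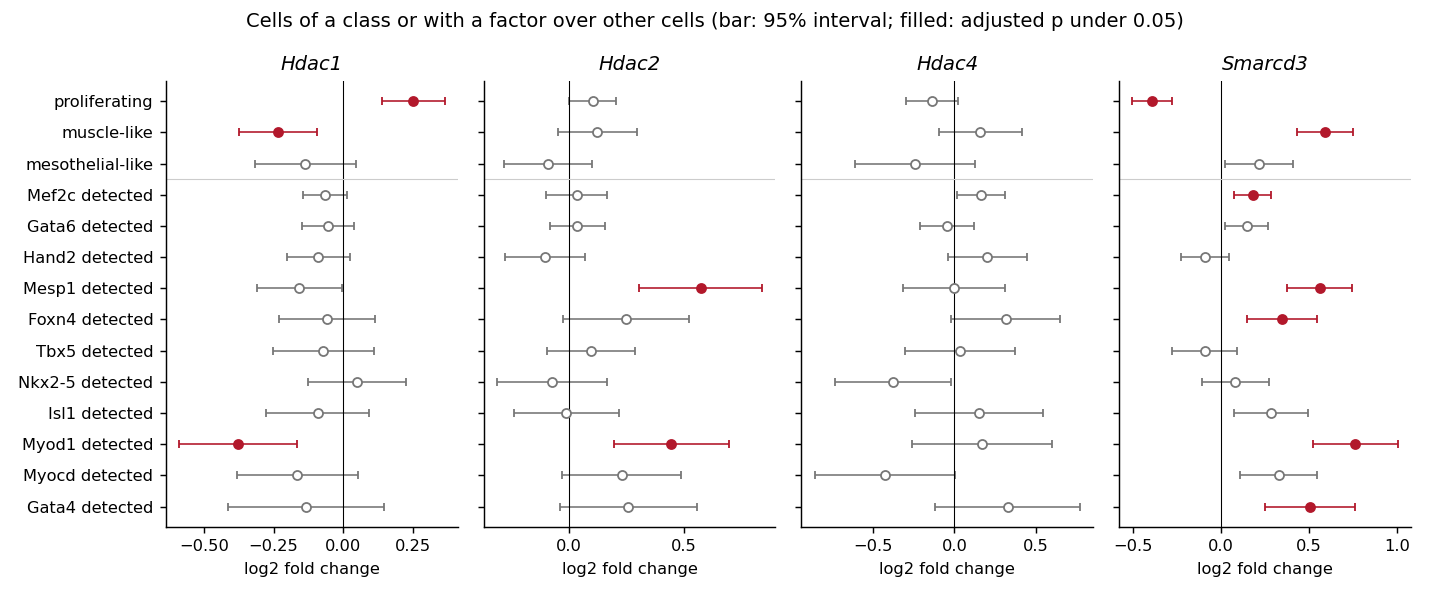
Log2 fold change of each gene in cells of a class, or with a detected factor, over matched other cells, with 95% intervals; filled points have an adjusted p under 0.05 (edgeR). Smarcd3 ran from -0.39 in proliferating cells to 0.76 in cells with Myod1, and no comparison of Hdac4 passed.

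Cells high in a member were the top 5% of a library by CPM with at least 3 counts, matched with other cells of that library; the member chose the cells and is left out. No member passed in the cells high in another. Cells high in Smarcd3 (220 matched, 32 libraries) differed most, with 573 of 11874 genes past the threshold (4.83%). Chpf2, which shares reads with Smarcd3, had a log2 fold change of 2.49. Of the genes with the same sign in all 3 series, the highest were the muscle genes Tnnc2 (5.28), Myh3 (5.16), Mymx (4.98) and Actc1 (4.84), and Arpp21 (4.69). The lowest of them were Sncg (-1.63), Dkk2 (-1.50), Pla2g7 (-1.47) and the cell cycle genes Ndc80 (-1.45) and Uhrf1 (-1.45). Of 17 skeletal muscle markers 16 were higher in these cells, and so were the pool factors Myod1 (3.30), Mef2c (2.22), Mesp1 (1.67), Mef2d (1.13), Mef2a (0.92) and Cdkn1a (0.53), while Nr2f2 was lower (-0.76). Without muscle-like and mesothelial-like cells 12 genes passed, and in the PZ58 series alone 1.

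Cells high in Hdac2 (363 matched, 35 libraries) differed in 33 of 12697 genes (0.26%), 23 higher and 10 lower, while DESeq2 called 1 and edgeR without the deepest cells 9. Higher were the muscle genes Mybpc1 (3.26), Tnnc2 (3.03), Srl (2.09) and Rapsn (1.91), and the pool factors Mesp1 (1.71, SE 0.42, adjusted p = 0.041) and Mef2b (1.36, SE 0.27, adjusted p = 0.0078). Lower were Tfpi2 (-2.15), Ctla2a (-1.19), Slc1a5 (-0.84), Cdc42ep5 (-0.65) and Itgav (-0.52), and 3 of 6 macrophage markers tested passed as lower. Cells high in Hdac1 (196 matched, 28 libraries) differed in 8 of 11504 genes (0.0695%). Those with the same sign in all 3 series were the haem enzyme Alad (0.90) as higher, and the pool factor Shox2 (-1.78) and Meg3 (-0.61) as lower; Gm10093 stood at 1.35 (SE 0.32, adjusted p = 0.072). Single markers of other cell types passed with high Hdac1. Of 9 mesothelial markers tested only Upk3b passed, as higher (3.48, SE 0.52, adjusted p = 0.00026, edgeR), with Upk1b at 2.165 (adjusted p = 0.16). Of 3 macrophage markers only Ctss passed, as lower (-3.31, adjusted p = 0.038). Their part in these values was not tested, and without muscle-like and mesothelial-like cells 0 genes passed in edgeR, while 789 had an unadjusted p under 0.05. For Hdac4 21 cells of 6 libraries could be matched and 0 of 5638 genes passed in edgeR (0%) and 0 in DESeq2, while 296 had an unadjusted p under 0.05 in edgeR and 60 in DESeq2.

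Over the 36 libraries, centred within read class, the genes most like a member by Pearson r of log2(CPM + 1) among 7542 genes were Hnrnpf (0.85), Vdac3 (0.85), Eif4a1 (0.80), Ewsr1 (0.79) and U2af1 (0.79) for Hdac1. For Hdac2 they were Prrx2 (0.78), Gxylt2 (0.74), Pafah1b1 (0.73), Mthfd2l (0.73) and Rab11fip2 (0.72). For Hdac4 they were Nfe2l1 (0.68), Hes1 (0.68), Supt5 (0.67), Dctn4 (0.66) and Spty2d1 (0.62). For Smarcd3 they were Chpf2 (0.96), Bag3 (0.72), Tmem109 (0.71), the SWI/SNF ATPase Smarca4 (0.69) and Eif3b (0.69). Hdac1 and Hdac2 ran in opposite directions across libraries (r = -0.46). The libraries share 1 culture and differ in depth and series, so these values are a description.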

How the data were processed

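The authors deposited unnormalized counts, one table of genes by cell barcodes for each sample. Per the submitters' processing notes, the tools were bcl2fastq 2.17.1.14, STAR 2.5.3a, UMI-tools and featureCounts 1.5.3, and the genome build was mm10. The annotation, the use of strand and the handling of reads with several places are not given in the sources used here. The EGFP row held 0 counts and was left out. Positions and sequences come from the GENCODE M21 annotation of GRCm38, possibly another release than the authors used.

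Of 8730 barcodes, 89 shared between libraries and 78 near-identical within one were removed. Technical replicates 4 and 6 shared 59 barcodes, against at most 4 for any other pair, and were merged. No doublet caller was run; an alternative left out the deepest 5% of cells.

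Class cells held at least 3 markers and other cells 0 or 1. They were matched 1 to 1 within a library on log2 total counts (within 0.25), and summed per library with at least 3 cells. Sums were tested with edgeR 4.0.16 (quasi-likelihood, TMM, at least 20 counts, library as block, Benjamini-Hochberg over all genes tested, threshold 0.05), after a check on simulated data; DESeq2 1.42.0 was an alternative. Intervals of fold changes are 95% from the SE. For shares, cells were thinned to 3000 counts by hypergeometric probability and compared by sign-flip permutation with 100000 resamples.

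Libraries are technical replicates of 1 culture with different cells in each, so p-values measure the spread between libraries of that culture and not between cultures. The block pairs the sides of a library, which were captured together. Members, lists, markers and tests were chosen with earlier results of these data known. From each list, up to 4 called genes of lowest adjusted p are named per class, and the 5 highest and 5 lowest with the same sign in all 3 series for cells high in a member.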

Additional observations from a re-analysis of the deposited data

How the results depend on the processing

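Every alternative kept the direction of the 4 class calls of Hdac1 and Smarcd3, and many moved a call across the threshold. The library block pairs the 2 sides of a library; without it Hdac1 stood at 0.24 in proliferating cells and -0.20 in muscle-like cells (log2 fold change) and passed in neither, and cells high in Hdac2 differed in 83 genes.

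In proliferating cells Hdac1 did not pass in JD alone (0.21), PZ58 alone (0.042) or the high read class alone (0.045), and Smarcd3 not in PZ58 alone (-0.32). Hdac2 passed without the deepest cells (0.15), with DNA replication markers (0.17) and without muscle-like cells (0.22). Hdac4 passed as lower with all other cells (-0.26), at least 5 markers (-0.23) or DNA replication markers (-0.29). In muscle-like cells Hdac1 did not pass at 2 markers (-0.11), without the deepest cells (-0.20), in JD (-0.19), PZ47-PZ48 (-0.30) or PZ58 alone (-0.23), in the high (-0.17) or low read class (-0.26), or without cycling cells (-0.44), and Smarcd3 not in PZ58 alone (0.55). The causes were not tested; the subsets hold fewer libraries or cells.

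Genes called in proliferating cells numbered 2902 in JD, 3295 in PZ47-PZ48, 948 in PZ58 and 1870 in the high read class. In muscle-like cells there were 4042 with all other cells, 771, 750 and 393 in the 3 series, 574 in the high and 1477 in the low read class, and 1214 without cycling cells. In mesothelial-like cells the same settings gave 3554, then 371, 459 and 155, then 296 and 763, and 381.

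Cells high in Hdac1 differed in 16 genes with DESeq2, 58 without a filter, 1050 with all other cells, 1 at the top 2%, 172 at the top 10%, 722 with all cells of at least 3 counts, 1 each in PZ47-PZ48 and PZ58, and 0 in edgeR without muscle-like and mesothelial-like cells (789 at an unadjusted p under 0.05). For Hdac2 there were 1 with DESeq2, 210 without a filter, 1189 with all other cells, 9 without the deepest cells, 13 without muscle-like and mesothelial-like cells, 15, 2 and 7 in the series and 209 with at least 3 counts. For Hdac4 there were 8 without a filter, 341 with all other cells, 40 at the top 10%, 1 without muscle-like and mesothelial-like cells and 43 with at least 3 counts. For Smarcd3 there were 335 with DESeq2, 3083 with all other cells, 155 and 1005 at the top 2% and 10%, 12 without muscle-like and mesothelial-like cells, 304, 95 and 1 in the series and 1903 with at least 3 counts.

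Of the factor comparisons, without muscle-like and mesothelial-like cells 0 called Hdac1, 0 Hdac2 and 1 Smarcd3, and Hdac2 with Myod1 turned to -0.095. With all other cells 1 called Hdac2 and 1 Hdac4, without the deepest cells 0 called Hdac2, and at 2 counts of the factor 1 called Hdac4 and 3 Smarcd3. High-tail differences in proliferating cells (percentage points) passed at 2 of 3000 counts for Hdac1 (1.34) and Hdac2 (1.56), and at 5 for Hdac1 (0.021); that of Smarcd3 did not at 5 of 3000 (-0.091) or of 5000 (-0.14). With all other cells the Hdac4 differences in mesothelial-like cells passed, for detection (-1.55) and the tail (-0.041). The other 317 values answering a comparison stayed like the main result. Tests stayed on their side of the threshold. Counts of genes or comparisons called, and dispersions, stayed within a set range of the main value. At a median of 8558 counts per cell, Hdac4 was too sparse for most cells to show it.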
